A study of Rattus norvegicus with 2 samples.

Results

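Dividing macrophages of the infarcted rat heart were taken here as cells with transcripts of macrophage genes and, in the same cell, of genes used only around cell division. They numbered 223 of 2833 gated macrophages and of 29949 cell barcodes in all, 98 in library 1 and 125 in library 2. The gate asked for at least 200 genes and at most 20% mitochondrial transcripts, at least 1 UMI (unique molecular identifier, the tag that counts 1 captured transcript) of Cd68, at least 5 UMIs summed over C1qa, C1qb and C1qc, and none of Cd3e or Cd79b. Within it, cells with 3 or more UMIs summed over Mki67, Top2a, Birc5, Cdk1, Ccna2 and Ube2c, called the division sum below, were the dividing macrophages. The 2245 gated cells with a division sum of 0 (1180 and 1065 in libraries 1 and 2) served for comparison and are called zero-sum macrophages. The 365 cells between them, with a sum of 1 or 2, entered neither side.

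The cells were leukocytes sorted by the surface protein CD45 from left ventricles of wild-type (wt) rats 7 days after surgery, and their transcripts were counted cell by cell with the droplet method of 10x Genomics. Per the labels, 1 sample came from rats with a myocardial infarction (MI) and 1 from rats with the infarction and a patch, MI+PUR-hAESC, in which a polyurethane scaffold carries human amniotic epithelial stem cells. Each sample is 1 library, and the age of the rats and how many hearts went into a library are not known here. The deposited matrix joins 2 libraries that differ in the suffix of their barcodes, which suffix belongs to which group is not known here, and a difference between library 1 and library 2 is therefore reported as such, never as patch against no patch.

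Macrophages of a healthy adult heart persist in part by dividing where they are, and after an infarction monocytes enter from the blood and become macrophages that can divide in the tissue too. A cell commits to a round of division in G1, copies its DNA in S phase, and in mitosis condenses, aligns and separates its chromosomes on the spindle before it splits. E2F factors drive the genes of S phase, and the DREAM and MuvB complexes keep genes of S phase and mitosis silent in resting cells through short promoter elements known from human and mouse cells.

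The promoters of some of these genes show such elements, and are given here since the genes recur in the results. Each line gives 150 bases before to 20 bases after the transcription start from RefSeq (build GRCr8), with matches to the following motifs on either strand in capitals: CCAAT (reverse ATTGG), the binding element of NF-Y; the cell cycle homology region TTTGAA (reverse TTCAAA) of mitotic genes; and the E2F spellings TTTGGCGC, TTTCCCGC, TTTGCCGC and TTTCGCGC. RT1-Da, a class II antigen presentation gene that was lower in dividing macrophages, is shown beside the division genes.
Plk1, a mitotic kinase, chr1:186147508-186147677, plus strand: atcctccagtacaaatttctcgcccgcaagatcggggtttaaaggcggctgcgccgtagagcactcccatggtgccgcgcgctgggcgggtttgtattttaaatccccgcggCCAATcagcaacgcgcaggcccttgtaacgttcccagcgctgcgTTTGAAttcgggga
Cenpf, a kinetochore protein, chr13:103760867-103761036, minus strand: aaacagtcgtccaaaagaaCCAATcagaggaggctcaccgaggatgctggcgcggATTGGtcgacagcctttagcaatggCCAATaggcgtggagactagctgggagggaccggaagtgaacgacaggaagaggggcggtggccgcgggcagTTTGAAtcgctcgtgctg
Hmgb2, a chromatin protein, chr16:37723931-37724100, minus strand: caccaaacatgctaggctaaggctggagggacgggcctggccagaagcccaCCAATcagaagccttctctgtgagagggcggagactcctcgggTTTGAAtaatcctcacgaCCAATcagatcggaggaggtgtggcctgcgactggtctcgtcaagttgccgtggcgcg
Mcm5, a subunit of the replicative helicase, chr19:13488663-13488832, plus strand: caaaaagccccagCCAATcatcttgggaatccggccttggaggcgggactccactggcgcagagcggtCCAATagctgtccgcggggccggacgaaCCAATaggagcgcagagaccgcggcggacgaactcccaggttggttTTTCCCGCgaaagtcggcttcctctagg
Mcm6, another subunit of that helicase, chr13:42404333-42404502, minus strand: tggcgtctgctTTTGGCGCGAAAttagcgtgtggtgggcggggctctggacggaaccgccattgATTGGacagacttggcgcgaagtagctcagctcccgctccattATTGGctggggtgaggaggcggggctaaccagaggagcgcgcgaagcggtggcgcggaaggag
RT1-Da, a class II alpha chain, chr20:4515265-4515434, plus strand: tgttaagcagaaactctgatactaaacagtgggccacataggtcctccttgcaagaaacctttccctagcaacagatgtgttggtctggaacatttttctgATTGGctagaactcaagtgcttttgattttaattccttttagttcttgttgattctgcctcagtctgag
Plk1, Cenpf and Hmgb2 hold both CCAAT and TTTGAA in this stretch, while Mcm5 and Mcm6 hold CCAAT and an E2F spelling and no TTTGAA. In Mcm6 an E2F spelling and the reverse of another overlap in 1 run of capitals. A match is a description of the letters and not a site, and a window without a match says nothing of the factor.

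The genes in the dividing macrophages, described below, held these motifs in their RefSeq promoter windows (250 bases before to 50 after the start) in the following shares. Of the 165 genes that stood 2-fold or more above the zero-sum macrophages in both libraries, 133 were matched by symbol, with 148 promoters. CCAAT was in 68.9% of these, TTTGAA in 44.6%, both together in 34.5% and an E2F spelling in 16.9%. Among the 4580 promoters of 4271 matched genes that were tested, the same shares were 39.0%, 11.8%, 5.50% and 4.26%. Over all 33469 promoters of the table they were 37.5%, 18.3%, 7.41% and 2.14%. The motifs split by role. TTTGAA was in 19 of 30 promoters of spindle, motor and cytokinesis genes and in 11 of 17 of mitotic cyclin and kinase genes, but in 4 of 18 of origin licensing genes, where an E2F spelling was in 12 of 18. The 8 class II promoters in the table all held CCAAT and none held TTTGAA or an E2F spelling.

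The gated cells were macrophages by their transcripts, in the dividing set as in the zero-sum set. CPM below is the UMIs of a gene per 1000000 UMIs of the summed cells of a set. C1qa, a chain of complement C1q, stood at 3613 CPM in dividing and 4015 CPM in zero-sum macrophages of library 1, and at 4164 and 5153 CPM in library 2. Cd68, a lysosomal protein of phagocytes, stood at 952 and 866 CPM in library 1 and at 921 and 883 CPM in library 2. The gate used both genes. Csf1r, the receptor for the growth factor on which macrophages depend, played no part in the gate and stood at 566 and 629 CPM in library 1 and at 536 and 541 CPM in library 2. In T cells of the same libraries with a division sum of 0, the macrophage transcripts Apoe and Lyz2 stood at 210 and 918 CPM in library 1. In library 2 they stood at 114 and 477 CPM. These T cells were chosen to lack C1q and Cd68, so the levels can understate what reached other cells.

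Mki67, whose protein coats chromosomes in mitosis and is absent from resting cells, had the highest level of the 6 rule genes. It had a UMI in 90 of the 98 dividing macrophages of library 1 and in 118 of the 125 of library 2, at 711 and 1062 CPM. Top2a, the topoisomerase that untangles sister chromatids, stood at 260 and 264 CPM, Ube2c, which helps the anaphase-promoting complex mark cyclins for destruction, at 187 and 215 CPM, and Birc5, of the chromosomal passenger complex, at 135 and 179 CPM. Cdk1, the kinase that drives entry into mitosis, stood at 97.0 and 103 CPM, and its partner Ccna2 (cyclin A2) at 52.1 and 49.2 CPM. All 6 were at 0 in zero-sum macrophages because the rule put them there. The median division sum was 7 UMIs in library 1 and 9 in library 2, with highest values of 164 and 151.

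Among genes that the division sum does not contain, Stmn1 and Hmgb2 climbed with it, and Pcna did so less and not steadily. Stmn1, which encodes the microtubule regulator stathmin, stood at 36.8 CPM in cells with a sum of 0 in library 1, at 238 CPM at a sum of 2, just outside the threshold, and at 398 CPM at a sum of 3, just inside. It reached 2235 CPM at sums of 20 or more. In library 2 the same steps were 42.3, 275, 376 and 2072 CPM. Cells near the threshold were few, with 47 and 43 cells at a sum of 2 and 20 and 22 at a sum of 3, and their Stmn1 level lay between the zero-sum macrophages and those far above the threshold in both libraries. Hmgb2, a chromatin protein abundant in cycling cells, stood at 134, 263, 398 and 2213 CPM at these steps in library 1 and at 199, 291, 544 and 2350 CPM in library 2. In library 1 it was lower at a sum of 4, at 198 CPM over 11 cells. Pcna, a gene of DNA synthesis, stood at 126, 123, 182 and 219 CPM at these steps in library 1. In library 2 it stood at 149, 176, 236 and 224 CPM, and at 176 CPM at sums of 10 to 19.

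**Figure D1:**
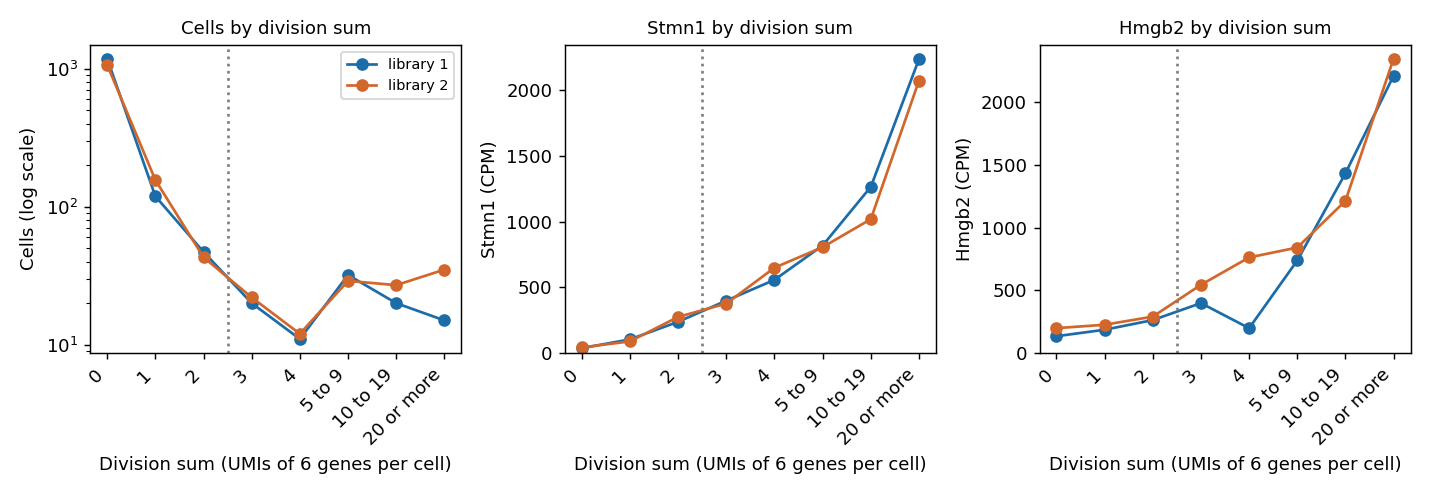
Cells (left, log scale), Stmn1 (middle) and Hmgb2 (right, CPM of the summed cells) by division sum, the UMIs of 6 division genes in a cell, for libraries 1 and 2; the dotted line marks the threshold between sums of 2 and 3. Stmn1 climbs from 36.8 and 42.3 CPM at a sum of 0 to 2235 and 2072 CPM at 20 or more.

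Dividing macrophages made up 6.79% of gated macrophages in library 1 (98 of 1444, exact 95% interval 5.54 to 8.21) and 9.0% in library 2 (125 of 1389, 7.55 to 10.6). The intervals overlap and, like all intervals here, cover counting error only, since each side is 1 library without a replicate. Dividing macrophages held more UMIs per cell, with medians of 8871.5 and 8679 against 7121.5 and 6480 in zero-sum macrophages, and more genes, 2666 and 2717 against 2278.5 and 2166. With every cell thinned at random to 3000 UMIs and a division sum of 2 or more, the share was 5.35% in library 1 (4.19 to 6.72) and 7.57% in library 2 (6.16 to 9.20). Thinning left out 154 of 1444 and 161 of 1389 gated cells. It left out 2512 of 3136 and 670 of 1282 neutrophils, and 203 of 1965 and 354 of 2909 T cells. Neutrophils, which have left the cell cycle when mature, gave 2.24% (1.23 to 3.74) and 1.47% (0.675 to 2.77) at the same depth. Only the deepest of them could be thinned, and whether their share is the background for macrophages was not tested. T cells gave 5.62% (4.59 to 6.80) and 8.22% (7.18 to 9.35), with intervals that overlap those of the macrophages in each library.

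Markers of other cells were present, at levels that differed between lists, and in part moved with the dividing set. UMIs numbering 2 or more over markers of T, B and NK cells, neutrophils and thymocytes were in 38.8% and 40.8% of dividing macrophages against 26.9% and 36.5% of zero-sum macrophages, at the deeper counts given above. Of the 10 genes of the NK cell list, 9 were detected in dividing macrophages of each library, and the summed level was 216 against 180 CPM in zero-sum macrophages of library 1 and 492 against 297 CPM in library 2. The lineage factor Eomes was at 0 in dividing macrophages of both. The neutrophil list (9 and 10 of 12 detected) summed to 2557 against 1950 CPM in library 1 and to 1662 against 1843 CPM in library 2. The dendritic cell list (8 and 9 of 11 detected) summed to 644 against 838 CPM and to 744 against 854 CPM. Its Clec10a, also in the resident-like list, stood at 597 and 675 CPM in dividing macrophages. Of the T cell list 8 and 9 of 10 genes were detected, at 144 and 164 CPM against 181 and 139 CPM, with Cd3e at 0 by the gate. Of the B cell list 4 of 7 were detected, at 16.3 and 20.4 CPM against 7.58 and 11.5 CPM, and of the thymocyte list 2 and 4 of 7, at 34.7 and 42.4 CPM against 34.0 and 46.6 CPM. Its Rag2 and Ptcra were among the genes at 0 in dividing macrophages of both libraries. Scrublet called 5 and 6 of the dividing macrophages doublets, 5.10% and 4.80%, against 4.07% and 4.23% of zero-sum macrophages. The part of these cells in the results was not tested beyond leaving such cells out, which is given where it changed a result. Of the barcodes, 71 occurred in both libraries, and 1 dividing macrophage had such a barcode.

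The dividing macrophages differed from zero-sum macrophages mainly upward. Ratios below are log2 of CPM plus 10 in dividing over zero-sum macrophages, given for library 1 and then library 2. Of 5445 genes with at least 20 CPM in either set of each library, 165 (3.03%) were 2-fold or more higher in both libraries and 3 (0.0551%) were 2-fold or more lower in both. Of all tested genes, 2394 (44.0%) had a ratio above 0 in both libraries and 1522 (28.0%) below 0 in both, with medians of 0.06 and 0.06. Scaling by trimmed means (TMM) lowers the ratios of tested genes by a median of 0.11 and 0.10 and at most 0.13 and 0.12, which leaves 1698 genes (31.2%) above and 2297 (42.2%) below 0 in both. These ratios carry no test, because the cells were chosen on their own division genes and each side is 1 library. The direction of genes that accompany the 6 rule genes follows in part from that choice.

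The 165 higher genes include the 6 rule genes, which had to be called. Of the other 159 genes, 102 (64.2%) were in lists of genes of the cell cycle and division, of which 172 symbols were tested. With the rule genes, these lists held 178 of all 5445 tested genes. The 3 lower genes were RT1-Da, AC114233 and Cfd, described below. Most of the 159 genes were also higher in dividing T cells, chosen by Cd3e and by the same division sum. The overlap therefore follows in part from the rule. Of all 5445 tested genes, the rule genes included, 218 were 2-fold higher in dividing T cells of both libraries. There, 146 of the 159 genes (91.8%) were 2-fold higher in dividing cells of both libraries, and these made up 68.9% of the 212 tested genes that were. The 13 others included Tubb4b, Rad21 and H2afv, which missed 2-fold in T cells of library 2 alone, and Cks2, with ratios of 0.51 and 0.48 in T cells. Ctsk, the protease cathepsin K, was the 1 gene among them from a macrophage list, at 127 and 177 CPM against 25 and 13.3 CPM, but 46.0% and 92.8% of its UMIs in dividing macrophages came from 1 cell of each library.

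Genes that move a cell through G1 had small ratios. Of the 6 tested members of the G1 list 5 were above 0 in both libraries, against 44.0% of all genes (2 of 6 under TMM, against 31.2%), none was below 0 in both (2 of 6 under TMM) or 2-fold higher in both, and their medians were 0.33 and 0.06 (-0.03 in library 2 under TMM). Ccnd1 (cyclin D1), which links growth signals to the cell cycle, stood at 161 against 160 CPM in library 1 and at 197 against 196 CPM in library 2, with counting intervals of the fold from 0.848 to 1.19 and from 0.869 to 1.15. Its kinase partner Cdk4 stood at 65.3 against 31.7 CPM and at 58.6 against 33.9 CPM. Cdc25a, the phosphatase gene that frees the kinases for S phase, had folds of 1.90 (1.20 to 2.92) and 2.07 (1.31 to 3.19) by counting error. Of the 8 tested E2F, Rb and DREAM factors none passed 2-fold in both, with medians of 0.46 and 0.55. E2f2 was nearest, with ratios of 0.78 and 1.07. Rbl2 (p130), the pocket protein of resting cells, had -0.33 and -0.38. Its counting interval of the fold took in 1 in library 1 (0.534 to 1.05) and not in library 2 (0.529 to 0.979).

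Of 10 brakes of the cell cycle 6 were below 0 in both libraries, against 28.0% of all genes (6 of 10 under TMM, against 42.2%), 3 were above, and the medians were -0.30 and -0.18. Btg2, an antiproliferative gene, stood at 595 against 789 CPM in library 1 and at 794 against 1008 CPM in library 2. Cdkn1a, which encodes the kinase inhibitor p21, stood at 137 against 192 CPM and at 206 against 241 CPM. Both ratios of Cdkn1b (p27) were near 0, at -0.15 and -0.14. One brake, Cdkn2c (p18), was among the 165 higher genes.

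S phase genes were higher as groups. Over all tested genes, 44.0% were above 0 and 3.03% were past 2-fold higher in both libraries, here and for the division lists that follow. Of 11 tested genes that license and fire replication origins, 11 were above 0 in both libraries and 6 passed 2-fold in both, with medians of 1.21 and 1.65. Mcm3, Mcm5, Mcm6 and Mcm7, subunits of the replicative helicase, were among them. Mcm5 stood at 40.8 against 4.57 CPM in library 1 and at 41.6 against 2.90 CPM in library 2, and Mcm6 at 71.5 against 22.1 CPM and at 78.1 against 17.3 CPM. Gmnn (geminin), which blocks a further round of licensing, stood at 119 against 24.1 CPM and at 140 against 34.2 CPM.

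Polymerase and fork factors were above 0 in both libraries in 17 of 17 cases (15 of 17 under TMM), and 10 passed 2-fold. Lig1, the ligase that joins Okazaki fragments, had ratios of 1.32 and 1.94. Pcna, the sliding clamp, had 0.60 and 0.48 and stood at 126 and 149 CPM in zero-sum macrophages. Of 14 genes of nucleotide synthesis 7 passed, among them Dut, which keeps uracil out of DNA, with 1.90 and 2.30, and the nucleotide pyrophosphatase gene Dctpp1 with 2.28 and 2.58. Impdh2, of guanine nucleotide synthesis, had 0.68 and 0.62.

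Histone and chromatin assembly genes were all higher, with 16 of 16 above 0 in both libraries and 12 past 2-fold (medians 1.30 and 1.41). Hmgb2 stood at 1074 against 134 CPM in library 1 and at 1405 against 199 CPM in library 2. Linker histone genes outside the list were also among the largest ratios, with Hist1h1b at 3.23 and 3.45 and Hist1h1e at 2.55 and 2.81. DNA repair and checkpoint genes had 5 of 8 past 2-fold, with medians of 1.14 and 1.22, while Parp1, which senses DNA breaks, was close to equal, with ratios of 0.20 and -0.04.

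Genes of mitosis had the largest group ratios. Of 13 mitotic cyclins and kinases 11 passed 2-fold in both libraries (medians 2.18 and 2.05), of 20 centromere and kinetochore genes 18 (2.40 and 2.32), and of 28 spindle, motor and cytokinesis genes 24 (2.45 and 2.62). Cenpf stood at 431 against 1.56 CPM in library 1 and at 466 against 2.49 CPM in library 2. The phosphatase gene Cdkn3, which acts on cyclin-dependent kinases, stood at 306 against 3.90 CPM and at 270 against 2.90 CPM. Plk1 stood at 80.7 against 0.558 CPM and at 73.0 against 0.553 CPM, and Tpx2, which helps build the spindle at chromosomes, at 186 against 1.45 CPM and at 243 against 3.46 CPM.

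Stmn1 had the highest level of the spindle list, with 1108 against 36.8 CPM in library 1, 30.1-fold higher (95% interval of the ratio of counts 26.6 to 34.2), and 1220 against 42.3 CPM in library 2, 28.8-fold higher (25.5 to 32.7). Tubulin genes, which resting cells need as well, differed less, with Tuba1b at 960 against 254 CPM and at 846 against 237 CPM. Of 11 condensin and cohesin genes 7 passed 2-fold, the condensin gene Smc2 with 2.45 and 2.84 and Pttg1 (securin), which holds back the cut of cohesin, with 4.09 and 4.19. The cohesin subunit genes Smc1a and Smc3, used in resting cells too, stayed under 2-fold. The anaphase-promoting complex showed the same split, since only its activator Cdc20 passed among 10 tested genes, with 3.38 and 3.53, while the subunit gene Anapc13 had 0.08 and 0.05.

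**Figure D2:**
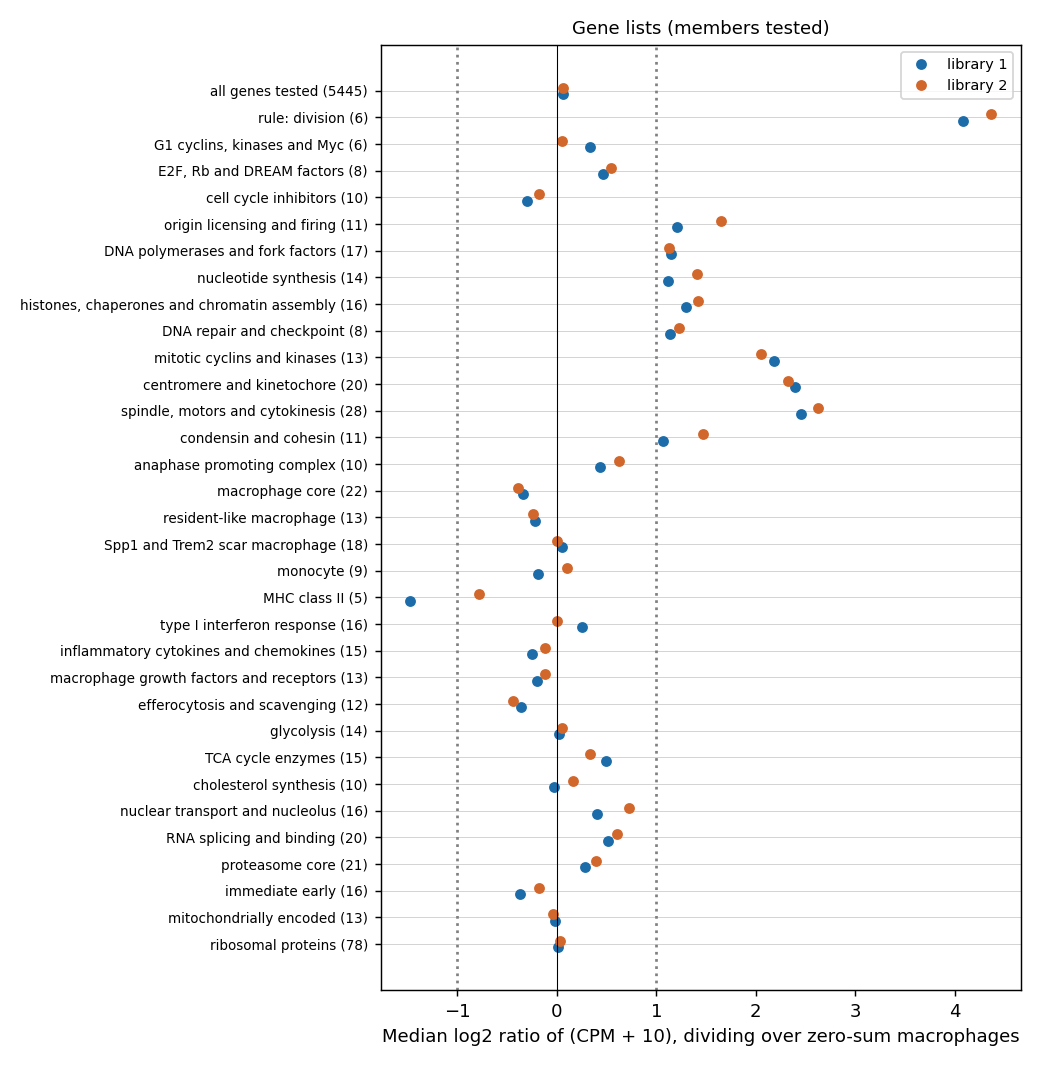
Median log2 ratio of CPM plus 10, dividing over zero-sum macrophages, for gene lists with 4 or more tested members (number in parentheses), in library 1 and library 2; dotted lines mark 2-fold. Lists of mitotic cyclins, kinetochore and spindle genes sit above 2 in both libraries, lists of DNA synthesis, histone and repair genes between 1.12 and 1.65, and MHC class II at -1.47 and -0.78.

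Dividing macrophages were a mixture of phases. With cells thinned to 3000 UMIs, an S sum was taken over 16 genes of DNA synthesis and a mitosis sum over 16 genes of mitosis, none of them in the division sum. Of 89 cells in library 1, 45 were led by mitosis genes (50.6%, 39.8 to 61.3), 15 by S phase genes (16.9%, 9.75 to 26.3), 2 were tied and 27 reached 3 UMIs on neither sum. Of 114 cells in library 2, 58 were led by mitosis genes (50.9%, 41.3 to 60.4), 25 by S phase genes (21.9%, 14.7 to 30.6), 3 were tied and 28 reached neither. Among zero-sum macrophages, 7.46% and 7.00% were led by S phase genes and 3.15% and 3.34% by mitosis genes, which gives the background of these calls. Most of the rule genes peak after S phase, so the rule itself favours cells led by mitosis genes.

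The S sum and the mitosis sum were hardly related across dividing macrophages, with a Pearson r of -0.032 over 89 cells and -0.15 over 114 cells of 1 library each. Cells led by S phase genes were deeper before thinning, with medians of 13860 and 10806 UMIs against 8629 and 8685 in cells led by mitosis genes. C1qa, which the gate used, stood at 3353 CPM in S-led and 3123 CPM in mitosis-led cells of library 1. In library 2 it stood at 4415 and 3997 CPM. Apoe, outside the gate, stood at 28175 and 11802 CPM in library 1 and at 8882 and 8639 CPM in library 2. Folr2 stood at 547 and 381 CPM and at 434 and 284 CPM. Some division genes outside both sums also differed between S-led and mitosis-led cells. Hmgb2 stood at 538 CPM in S-led and 1866 CPM in mitosis-led cells of library 1 and at 1092 and 2049 CPM in library 2, and Mki67, a rule gene, at 368 and 1114 CPM and at 854 and 1470 CPM.

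**Figure D3:**
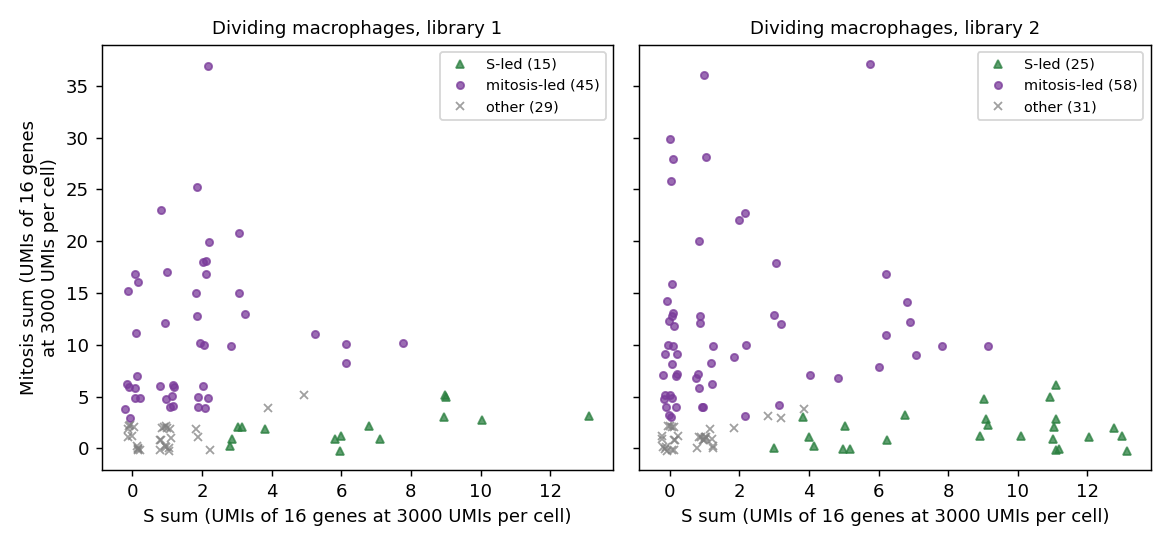
S sum against mitosis sum (UMIs of 16 genes each, in cells thinned to 3000 UMIs, jittered) for 89 dividing macrophages of library 1 and 114 of library 2, marked as S-led, mitosis-led or other. Cells lie along both axes, with 15 and 25 S-led and 45 and 58 mitosis-led.

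Genes of RNA processing, nuclear transport, the proteasome and the tricarboxylic acid cycle were higher too, with list medians under 2-fold. All 20 splicing and RNA-binding genes were above 0 in both libraries (19 of 20 under TMM), against 44.0% of all genes, with medians of 0.51 and 0.60. Hnrnpa1 stood at 378 against 237 CPM in library 1 and at 463 against 263 CPM in library 2. Of 16 nuclear transport and nucleolar genes 15 were above 0 and 2 passed 2-fold. Among them was Ran, the GTPase that drives nuclear transport and spindle assembly, at 720 against 288 CPM and at 670 against 268 CPM. Of 21 proteasome genes 20 were above 0 (19 under TMM), with medians of 0.29 and 0.39. Of 15 enzymes of the tricarboxylic acid (TCA) cycle 14 were above 0 (13 under TMM), with medians of 0.49 and 0.34, and Mdh1 (malate dehydrogenase) stood at 198 against 109 CPM and at 163 against 110 CPM.

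Glycolysis genes showed no common side, with 5 of 14 above and 3 below 0 in both libraries, against 44.0% and 28.0% of all genes, and medians of 0.02 and 0.06. Both were below 0, at -0.13 and -0.13, when zero-sum cells were weighted to the same depths. Pgk1 (phosphoglycerate kinase) had 0.37 and 0.75 and Hk2 (hexokinase 2) -0.13 and -0.41. Ribosomal protein genes (78 tested) and mitochondrially encoded genes (13 tested) had medians within 0.04 of 0. Among genes outside every list, Selenoh, a nuclear selenoprotein gene, stood at 564 against 164 CPM in library 1 and at 585 against 155 CPM in library 2, and Hdgf, a chromatin-binding growth factor gene, at 215 against 69.7 CPM and at 261 against 68.6 CPM.

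Class II antigen presentation genes were lower in dividing macrophages. All 5 tested class II genes were below 0 in both libraries, against 28.0% of all genes, with medians of -1.47 and -0.78, and RT1-Da passed 2-fold in both. RT1-Da stood at 1494 against 4174 CPM in library 1 and at 2163 against 4650 CPM in library 2, folds of 0.358 (0.339 to 0.377) and 0.465 (0.447 to 0.484) by counting error. Its beta chain gene RT1-Db1 stood at 1122 against 3362 CPM and at 1813 against 3440 CPM, and Cd74, the invariant chain that guards the groove of class II, at 3236 against 6965 CPM and at 4749 against 8163 CPM. RT1-Ba and RT1-Bb had ratios of -1.22 and -0.76 and of -1.47 and -0.76. Leaving out cells with markers of other lineages brought RT1-Da to -0.88 in library 2, and weighting zero-sum cells to the same depths brought it to -0.91, both short of 2-fold. Over the alternatives tried, the class II median ranged from -1.81 to -1.10 in library 1 and from -0.90 to -0.59 in library 2.

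Fewer of the dividing than of the zero-sum macrophages were rich in class II. With cells at 3000 UMIs, the UMIs summed over the 5 class II genes had a median of 3 in dividing and 5.5 in zero-sum macrophages of library 1 and of 7 and 24 in library 2. Cells with 60 UMIs or more made up 10.1% of dividing against 29.3% of zero-sum macrophages in library 1 and 18.4% against 33.6% in library 2. Cells with 4 or fewer were close in share in library 1, at 53.9% and 49.0%, and further apart in library 2, at 44.7% and 36.0%. The ranges overlapped, with dividing macrophages reaching 198 and 274 UMIs and zero-sum macrophages 445 and 368.

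The share of class II-rich cells was also lower among dividing macrophages within strata. Without Spp1 UMIs, it was 10.0% of 40 dividing against 34.8% of 710 zero-sum macrophages in library 1 and 19% of 63 against 38.8% of 690 in library 2. With Spp1 UMIs, it was 10.2% against 17.9% in library 1, but 17.6% against 18.4% in library 2, which is hardly a difference. Among cells with 5 or more UMIs of Lyve1, Folr2, Cd163 and Mrc1, genes of resident-like macrophages, it was 3.33% of 30 against 22.0% of 473 in library 1 and 12.5% of 24 against 26.1% of 261 in library 2. The medians went the other way in library 1, where the class II sum was 7 in dividing and 2 in zero-sum macrophages of this resident-like stratum and 2 and 1 with Spp1 UMIs. In library 2 they were 2 and 9 in the resident-like stratum and 3 and 3 with Spp1 UMIs. In T cells, where class II transcripts were scarce, RT1-Da stood at 200 CPM in dividing and 99.6 CPM in zero-sum cells of library 1 and at 236 and 152 CPM in library 2, and the difference between the cell types was not tested. Class II levels did not fall step by step with the division sum in either library. RT1-Da stood at 2590 CPM at a sum of 3, 497 CPM at 10 to 19 and 1787 CPM at 20 or more in library 1, and at 2070, 2913 and 1793 CPM in library 2.

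Other genes of mature macrophages were lower too, as a list by smaller amounts than class II genes. Of 22 tested core macrophage genes 20 were below 0 in both libraries, against 28.0% of all genes (20 and 42.2% under TMM), with medians of -0.33 and -0.38. Apoe, which carries lipids out of the cell, stood at 21981 against 38533 CPM in library 1 and at 9442 against 21598 CPM in library 2. Its ratios were -0.81 and -1.19, past 2-fold in library 2 and there below the -1.10 of RT1-Da. Apoe was at 10001 and 6881 CPM at division sums of 20 or more. It did not fall at every step of the sum, with 52762 CPM over the 11 cells of library 1 at a sum of 4. The transcription factor gene Cebpb stood at 1710 against 2212 CPM and at 1403 against 2062 CPM. Lyz2, the lysozyme gene, differed less, with ratios of -0.16 and -0.39, and so did Tyrobp, an adaptor of immune receptors, with -0.13 and -0.16.

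Resident-like genes were below 0 in both libraries in 10 of 13 cases, against 28.0% of all genes here and for the lists that follow, with medians of -0.22 and -0.24, among them the chemokine gene Pf4 with -0.52 and -0.67 and the folate receptor gene Folr2 with -0.21 and -0.49. Efferocytosis and scavenging genes, for the uptake of dead cells, were below 0 in 9 of 12 cases (medians -0.36 and -0.44), with the scavenger receptor gene Lrp1 at 186 against 240 CPM and at 157 against 230 CPM. Receptors and factors of macrophage growth were below 0 in 10 of 13 cases. Klf4, a factor of monocyte maturation, stood at 651 against 936 CPM and at 688 against 978 CPM. Immediate early genes, which tissue dissociation can raise, were below 0 in 13 of 16 cases (medians -0.37 and -0.18).

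Outside the lists, the genes with the lowest ratios included the following. Cfd (adipsin, complement factor D) stood at 347 against 840 CPM in library 1 and at 240 against 664 CPM in library 2, past 2-fold in both. Pltp, which transfers phospholipids, stood at 900.5 against 1739 CPM and at 492 against 1145 CPM, past 2-fold in library 2 alone. The receptor genes Lilrb4 and Cd300le and the chemokine receptor gene Cxcr4 had ratios between -0.88 and -0.74. Ltc4s, the synthase of leukotriene C4, had -0.83 and -1.04. Prg4 had -1.41 and -0.84, but 74.1% of its UMIs in dividing macrophages of library 2 came from 1 cell. AC114233, for which no function is given here, had -1.31 and -1.04.

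Genes of the scar-associated Spp1 and Trem2 state went both ways, with 8 of 18 above and 7 below 0 in both libraries, against 44.0% and 28.0% of all genes, and medians of 0.06 and 0.00 that turned negative under TMM (-0.07 and -0.11). Spp1, which encodes osteopontin, stood at 1860 against 1351 CPM in library 1 and at 765 against 762 CPM in library 2, and its ratio turned negative (-0.20 and -0.73) when zero-sum cells were weighted to the same depths, and in library 2 also under TMM (-0.11). Cells thinned to 3000 UMIs held a Spp1 UMI in 55.1% of dividing and 32.1% of zero-sum macrophages of library 1. In library 2 the shares were 44.7% and 25.7%. Zero-sum T cells, chosen to lack C1q and Cd68, gave 4.70% and 1.61%. Median depths before thinning were 9468, 7616.5 and 4603 UMIs in library 1 and 9108, 6953 and 4891 UMIs in library 2. Lgals1, which encodes galectin-1, stood at 681 against 415 CPM and at 752 against 518 CPM. Gpnmb had -0.16 and -0.27.

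**Figure D4:**
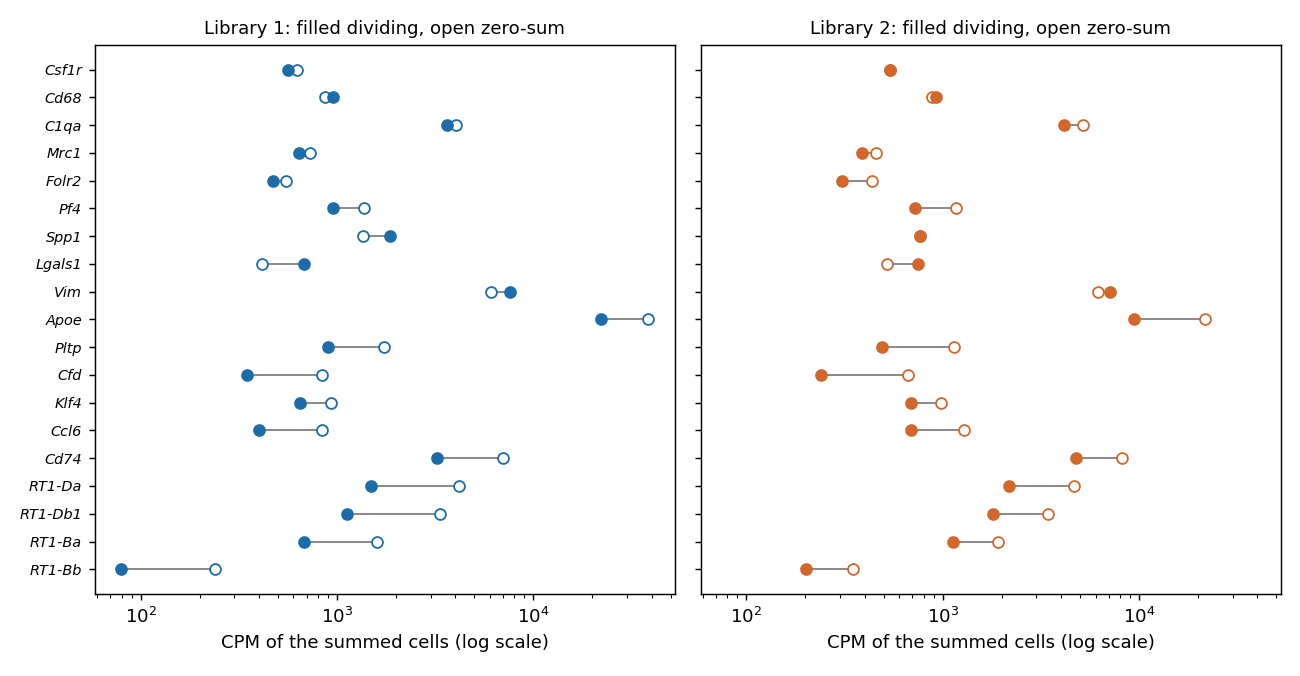
CPM (log scale) of macrophage genes in dividing (filled) and zero-sum (open) macrophages of library 1 and library 2, each over the summed cells. The class II genes at the bottom and Apoe, Pltp and Cfd are lower in dividing macrophages of both libraries, Lgals1 is higher, and Csf1r and Cd68 nearly coincide.

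Inflammatory cytokines and chemokines were below 0 in both libraries in 9 of 15 cases, against 28.0% of all genes, yet some were higher. The median in library 2 was -0.11, but 0.03 without cells that held markers of other lineages. The neutrophil attractant gene Cxcl2 stood at 1892 against 2742 CPM in library 1 and at 2344 against 3006 CPM in library 2, and Ccl6 at 401 against 839.5 CPM and at 688 against 1278 CPM. The monocyte attractant gene Ccl2 was near equal in library 1, at 713 against 690 CPM, and higher in library 2, at 945 against 457 CPM. Ccl4, another chemokine gene, stood at 852 against 707 CPM and at 1865 against 884 CPM. Type I interferon response genes had medians of 0.26 and 0.01, with 7 of 16 above and 3 below 0 in both libraries, against 44.0% and 28.0% of all genes (6 and 6 under TMM).

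Cells past the division threshold occurred in every bin of macrophage state. Neutrophils, given for reference at this depth and threshold, had 2.24% (1.23 to 3.74) in library 1 and 1.47% (0.675 to 2.77) in library 2. Whether that is the background for macrophages was not tested. At 3000 UMIs per cell, with a division sum of 2 or more, the share of dividing cells was 3.71% among cells without Spp1 UMIs in library 1 (2.55 to 5.2), 9.29% with 1 to 4 UMIs (6.10 to 13.4), 9.52% with 5 to 19 (4.66 to 16.8) and 3.70% with 20 or more (0.452 to 12.7, 2 of 54 cells). In library 2 the shares were 5.66% (4.23 to 7.40), 13.6% (9.58 to 18.6), 10.8% (4.78 to 20.2) and 6.90% (0.846 to 22.8, 2 of 29 cells). The interval with 20 or more Spp1 UMIs overlaps that of neutrophils in each library, and the interval without Spp1 UMIs does so in library 1. The step from no Spp1 UMI to 1 to 4 UMIs was 5.58 percentage points in library 1 (2.31 to 9.79) and 7.97 in library 2 (3.84 to 13), with intervals that leave out 0. Spp1 stood at 17.6 and 5.94 CPM in zero-sum T cells, against 1351 and 762 CPM in zero-sum macrophages. The T cells were chosen to lack C1q and Cd68, so their level can understate that of free transcripts.

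At 3000 UMIs the share was lowest in cells richest in resident-like transcripts. It was 7.26% in library 1 (3.37 to 13.3) and 13.3% in library 2 (8.90 to 18.9) for cells without UMIs of Lyve1, Folr2, Cd163 and Mrc1. For those with 5 or more it was 3.94% (2.51 to 5.85) and 4.35% (2.45 to 7.07). The difference was 8.99 percentage points in library 2 (4.10 to 14.7), while in library 1 it was 3.32 with an interval that takes in 0 (-0.57 to 9.42). At 1500 UMIs per cell and a division sum of 1 or more, the difference in library 2 was 5.68 with an interval that takes in 0 as well (-1.96 to 11.1). By class II sum, in bins set after the values were seen, the share was lowest in the cells with 60 UMIs or more, at 2.31% (1.00 to 4.50) and 4.36% (2.56 to 6.89). At 3000 UMIs the intervals of the richest resident-like and class II bins overlap those of neutrophils in each library. In library 1 the intervals of cells without resident-like UMIs and of cells with 20 to 59 class II UMIs do so too. In library 2 neither of these overlaps that of neutrophils.

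**Figure D5:**
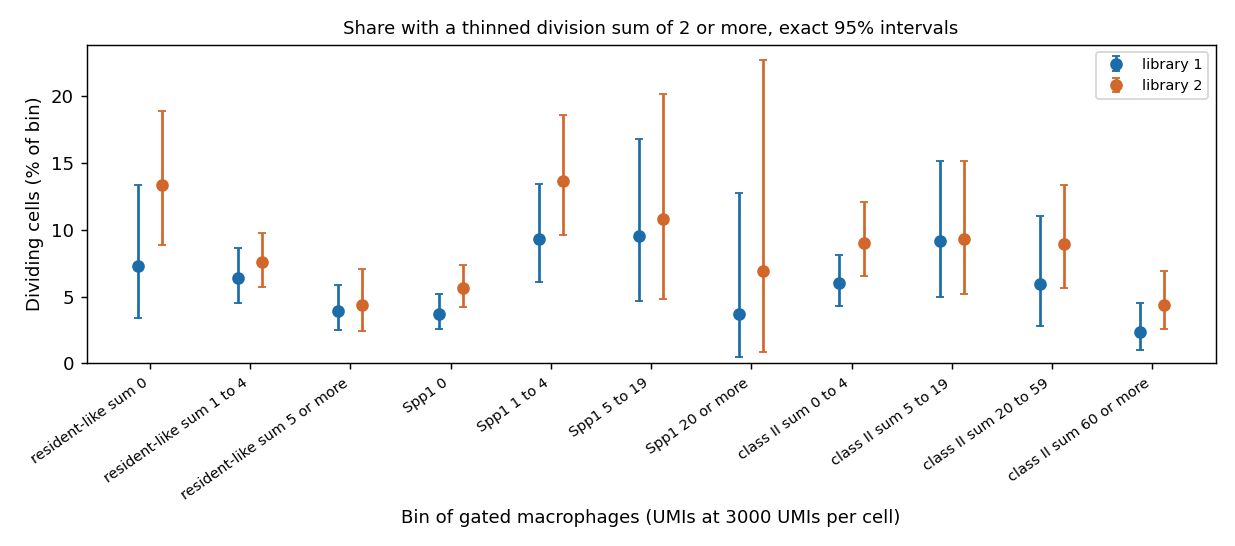
Share of gated macrophages with a division sum of 2 or more in cells thinned to 3000 UMIs, by bins of resident-like, Spp1 and class II UMIs, in library 1 and library 2; bars are exact 95% binomial intervals. Shares run from 2.31% in class II-rich cells of library 1 to 13.6% in cells of library 2 with 1 to 4 Spp1 UMIs.

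Between the libraries, the genes that differed most in dividing macrophages included interferon response genes. Of 5906 tested genes, 64 (1.08%) were 2-fold or more higher in dividing macrophages of library 2 and 48 (0.813%) were 2-fold or more lower than in library 1, and 3301 (55.9%) were above 0. Of the 64, 57 were on the same side of 0 in zero-sum macrophages and 19 were 2-fold there as well, and of the 48, 41 and 4. Vcan and Cxcl13 were on opposite sides in the sets. Ratios in this and the next paragraph are log2 of CPM plus 10, library 2 over library 1. Of 21 type I interferon genes 20 were higher in library 2, against 55.9% of all genes, with a median of 0.62 in dividing and 0.80 in zero-sum macrophages. Irf7, which switches on interferon genes, stood at 61.3 CPM in library 1 and 215 CPM in library 2, and at 64.0 and 253 CPM in zero-sum macrophages.

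Fam111a, a replication-linked protease gene, combined both patterns. It stood at 37.8 CPM in dividing macrophages of library 1 and 349 CPM in those of library 2, and at 1.56 and 52.0 CPM in zero-sum macrophages, so that it was higher in dividing macrophages of each library (ratios of 2.05 and 2.53 over zero-sum macrophages) and higher in library 2 in each set (2.91 and 2.42). Dividing T cells gave 46.2 and 339 CPM, and T cells with a sum of 0 gave 1.28 and 59.7 CPM. Ly6e and Ifi27l2b had ratios of 1.53 and 1.53 in dividing and of 1.60 and 2.13 in zero-sum macrophages. The monocyte attractant gene Ccl12 stood at 57.2 and 314 CPM in dividing and at 62.3 and 152 CPM in zero-sum macrophages.

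Several of the genes higher in library 1 rested largely on single cells. Of the UMIs in its dividing macrophages, 1 cell held 96.6% of those of Col4a1, 94.8% of Ccl24, 81.6% of Mt3, 77.0% of Apoc1, 73.7% of Sparc and 59.4% of Cxcl13. The endothelial list, which holds none of these genes and of which 6 of 8 genes were detected, was at 122 CPM in dividing macrophages of library 1 against 56.0 CPM in zero-sum macrophages, and 1 cell held 94.4% of the UMIs of Cdh5 and all of those of Kdr. Spread over more cells were Cd9, a tetraspanin gene, at 354 CPM in library 1 and 124 CPM in library 2 (1 cell with 9.80% and 17.1% of them) and Serpinb6a, at 88.8 and 28.0 CPM. The ratio of Serpinb6a was -1.38 in dividing and -1.26 in zero-sum macrophages. The lists from origin licensing to the anaphase-promoting complex had medians from -0.05 to 0.38 between the libraries, and the cell cycle inhibitors had 0.41. S phase licensing genes were higher in library 2 in 13 of 14 cases, with a median of 0.27. Mitotic cyclins and kinases were higher there in 10 of 15 cases, with 0.28. Of all genes 55.9% were.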

How the data were processed

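Left ventricles, infarct and surrounding zone together, were digested, and CD45+ cells were sorted and run on the 10x Chromium platform with 3′ chemistry, per the labels' protocols. The authors deposited 1 joint matrix of unnormalized UMI counts, whose file header names Cell Ranger 4.0.0. The genome build is not known here. A deposited table of 33756 barcodes has only 111 in the matrix with the same suffix, so it describes other cells and was not used. Library 1 held 14283 barcodes with 72506643 UMIs and library 2 held 15666 with 82802439. Rows of the same symbol were summed (26976 symbols).

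Counts were summed per library and set of cells and divided by their total to CPM. The log2 ratios use a pseudocount of 10 CPM, and a gene was tested with 20 CPM or more in either set of each library. "Tested" here means compared by size, since 1 library a side allows no p-value. Intervals (95%) are exact binomial for shares, Newcombe for differences of shares and exact conditional for ratios of counts, and cover counting error only. Scrublet was run per library in scanpy 1.11.5 with an expected share of 8%, and called doublets were kept except in an alternative. Other tools were Python 3.11.15, numpy 2.4.6, scipy 1.17.1, pandas 2.3.3 and matplotlib 3.10.9. The gene comparison was run on simulated Poisson counts. These had no spread between cells and no choice of cells by division genes, so they do not check the effect of either.

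The members, gene lists and bins were chosen with earlier results of these data known. Named genes are the rule genes, up to 6 members of each list with the highest CPM in dividing macrophages, the 15 highest and 15 lowest ratios outside the lists, and the 10 highest and 10 lowest ratios between libraries, with at least 50 UMIs in the higher set. AC114233, Ctsk, Cdkn2c and Eomes were named after their values were seen. Alternatives changed the pseudocount, the CPM minimum, the scaling, the gate, the division threshold, depth weighting, doublets and cells with markers of other lineages; leaving out cells with 2 or more NK UMIs was chosen after seeing the data.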

Additional observations from a re-analysis of the deposited data

Results flagged for a closer look

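Of 305 named genes, 47 had ratios of dividing over zero-sum macrophages on opposite sides of 0 in the libraries, and in 3 of these both ratios were at least 0.5 in size (log2) with counting intervals that left out 0. The differences below are log2 ratios, library 2 minus library 1, with 1 library on each side, and they were not tested. Vcan, a matrix proteoglycan gene of monocytes, differed by 3.58, with 15.3 against 147 CPM in library 1 and 121 against 58.1 CPM in library 2, from 15 and 143 UMIs in dividing macrophages. In these, 1 cell held 33.3% and 28.7% of the UMIs. Cxcl13, a chemokine gene, differed by -4.21, with 70.5 against 14.4 CPM and 7.64 against 88.9 CPM, and 1 cell held 59.4% and 100% of its UMIs in dividing macrophages. Csf1, the growth factor gene of macrophages, differed by -2.03, with 60.2 against 31.6 CPM and 11 against 40.6 CPM, from 59 and 13 UMIs.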

How the results depend on the processing

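The count of genes 2-fold higher in dividing macrophages of both libraries stayed within 1.5 times of 165 under all alternatives but a pseudocount of 50 CPM, which gave 65. The 3 lower genes became 6 with a pseudocount of 1 CPM, 6 with TMM, 5 with zero-sum cells weighted by depth, 8 as a mean of CPM per cell, and 9 each with a division sum of 5 or more and without cells that held markers of other lineages. Between libraries, the 64 genes higher in library 2 became 162 and 13 with pseudocounts of 1 and 50 CPM and 143 without cells with other lineage markers. The 48 higher in library 1 became 105 and 13 with those pseudocounts, 73 without cells with other lineage markers, 85 without cells with NK UMIs and 78 with a division sum of 5 or more. The dividing share was 4.64% and 6.55% with a sum of 5 or more, 8.97% and 11.5% at 1500 UMIs with a sum of 1 or more, 5.35% in library 1 at 3000 UMIs with a sum of 2 or more, and 7.5% in library 2 without cells with NK UMIs. The cause was not tested, except that a stricter sum keeps fewer cells.

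Beside the medians near 0 given above, signs turned in 8 values that stood clear of 0. The NK list median in library 1 was -0.26 with a sum of 5 or more and -0.22 with depth weighting. Without cells with other lineage markers, the library 1 ratios were -0.24 for Cdh5, -0.13 for Kdr and -0.13 for Xcl1, and Ccl24 stood at 2.04 for library 2 over library 1. Without cells with NK UMIs, Xcl1 in library 1 stood at -0.036 and Cd24 between libraries at -0.17. Of 7156 gene ratios under alternatives, 123 dropped below 2-fold and 116 reached it.

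No paired analysis was possible because each group has 1 sample and the barcode suffixes are tied to neither. With 98 and 125 cells, genes under 20 CPM were not compared.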
